A study of Mus musculus with 14 samples.

Results

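The 8 dendritic cell identity genes Flt3, Kmo, Cd209a, Xcr1, Irf4, Batf3, Cd80 and Cd86 were followed across macrophages of the injured mouse brain and monocytes of the blood. In Arg1+ brain macrophages 5 of the 8 were lower than in Arg1- brain macrophages, where 2.9% of all tested features were: the receptor Flt3, the enzyme Kmo, the lectin Cd209a and the transcription factors Irf4 and Batf3. With a different background correction (normexp), Flt3, Kmo and Batf3 were still lower but no longer at an adjusted p under 0.05. Batf3 also missed that threshold when any 1 of the Arg1- arrays was left out. Irf4 and Kmo were not well above background on any of the 4 Arg1+ arrays. These arrays were dimmer in general, with 50.13% to 63.35% of all probes well above background, against 56.35% to 67.26% on Arg1- arrays. The costimulatory ligands Cd80 and Cd86 were higher in both brain groups than in blood monocytes of injured mice. The 8 names were chosen with earlier results of these data known, so their counts beside the shares of all features are descriptive only. Their probes were taken by symbol, as every non-control probe whose accession mapped to one of the names. This gave 10 probes for 8 of the 17178 named genes on the array. All 8 passed the filter on dim probes and were among the 12973 named genes tested.

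The injury (traumatic brain injury, TBI) was a controlled cortical impact, in which a piston strikes the exposed cortex. At day 1 live leukocytes were sorted on the surface proteins CD45, CD11b and Ly6G and on the macrophage antigen that Adgre1 encodes. The groups were Arg1+ brain macrophages (n = 4) and Arg1- brain macrophages (n = 4) of injured mice, monocytes from the blood of injured mice (n = 3) and monocytes from the blood of mice with no treatment, called normal (n = 3). All were males of the strain YARG, aged 12 to 16 weeks, in which a fluorescent reporter at the Arg1 locus marks cells that use this gene. Every group, normal blood included, carried that reporter, and no sham-operated group was among the arrays. The replicates are numbered, and nothing in the labels ties a number to an animal, so p-values measure only the spread between these samples, part of which may be technical.

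A level is the log2 of a probe's processed signal over the 75th percentile of its array, so that 0 is the brightness of that percentile, and levels under -4.32 were raised to -4.32. Two-sided limma tests ran on 21977 features, named genes and unnamed probes together, with Benjamini-Hochberg adjustment per comparison, and an adjusted p under 0.05 was called. Values after ± beside a difference are standard errors of the fit and beside a mean are SDs. Arg1 itself, the gene the brain cells were sorted on, lay at 6.20 to 6.82 on the 3 Arg1+ arrays with a usable spot, at 2.12 to 4.20 on the 4 Arg1- arrays and at -3.90 to -3.13 on the 6 blood arrays. The macrophage markers, of which 11 of 12 listed were tested, summed to 316 to 386 times the 75th percentile on Arg1+ arrays, 243 to 307 on Arg1- arrays, 173 to 253 in post-TBI blood and 64.4 to 193 in normal blood. A gene without a usable spot on an array adds nothing to that array's sum. The bright marker Csf1r, at a mean of 6.76 in normal blood, had a usable spot on only 2 of the 3 arrays there. The low end of the normal blood sums is therefore not comparable with the other groups. One post-TBI blood array, replicate 4, stood apart in the sum of its neutrophil markers, at 96.8 against 16.4 and 23.4 on the other post-TBI arrays. Sums are of linear levels, so the brightest gene weighs most, here Retnlg at 3.99 ± 1.94 in post-TBI blood. Calls of members and named genes that changed without replicate 4 are given with both values.

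Conventional dendritic cells are antigen-presenting cells that take up antigen in tissues, move to lymph nodes and prime T cells. They develop from bone marrow progenitors under the growth factor Flt3 ligand and fall into a cross-presenting type (cDC1), which depends on Batf3 and carries Xcr1, and a CD11b+ type (cDC2), for which Irf4 is important. Inflammatory monocytes can take on several of these features in injured tissue, and Cd80 and Cd86 are also made by activated macrophages. CD11b, used in the sort, is present on macrophages, monocytes, neutrophils and cDC2 alike. In sorted bulk samples, fewer cells of a type and less RNA per cell cannot be told apart.

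RefSeq (GRCm38.p6) held a promoter window for 7 of the 8 members and none for Cd86. Each window was read over the 250 bases before the start of the gene, on the gene's own strand. Those of Flt3 (chr5:147400490-147400739, minus strand) and Irf4 (chr13:30748983-30749232, plus strand) are shown. Flt3 was the growth factor receptor among the members, and its difference between Arg1+ and Arg1- cells was not called with normexp. Irf4 was the member transcription factor with the larger difference between these cells. Those of Kmo (chr1:175631943-175632192, plus strand) and Cd80 (chr16:38458683-38458932, plus strand) are shown because they were the windows with a motif match, in capitals.
Flt3: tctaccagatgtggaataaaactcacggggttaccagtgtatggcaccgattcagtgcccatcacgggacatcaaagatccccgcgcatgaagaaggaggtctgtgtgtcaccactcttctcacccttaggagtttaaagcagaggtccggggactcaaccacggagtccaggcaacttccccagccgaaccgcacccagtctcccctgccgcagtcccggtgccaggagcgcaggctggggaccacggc
Irf4: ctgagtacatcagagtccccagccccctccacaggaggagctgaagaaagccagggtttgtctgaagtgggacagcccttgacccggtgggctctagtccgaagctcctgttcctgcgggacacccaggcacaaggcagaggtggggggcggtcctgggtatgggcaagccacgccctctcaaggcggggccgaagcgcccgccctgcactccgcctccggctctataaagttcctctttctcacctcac
Kmo: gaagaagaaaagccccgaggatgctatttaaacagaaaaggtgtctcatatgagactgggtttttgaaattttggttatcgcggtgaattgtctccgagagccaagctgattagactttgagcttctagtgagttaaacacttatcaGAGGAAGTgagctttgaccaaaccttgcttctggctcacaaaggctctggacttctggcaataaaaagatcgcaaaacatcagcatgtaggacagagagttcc
Cd80: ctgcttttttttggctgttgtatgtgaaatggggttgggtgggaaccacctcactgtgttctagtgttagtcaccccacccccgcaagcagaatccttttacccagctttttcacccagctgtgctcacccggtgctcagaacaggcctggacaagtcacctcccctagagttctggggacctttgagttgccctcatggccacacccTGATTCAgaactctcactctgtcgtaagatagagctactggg
The capitals in the Kmo window are a match to the PU.1 motif GAGGAAGT, 103 to 96 bases before the start, which was held by 2.44% of all 32851 windows searched on both strands. The capitals in the Cd80 window are a match to the AP-1 motif TGANTCA, 42 to 36 bases before the start, held by 6.75% of all windows. PU.1 is a myeloid master regulator, and Batf3 and Jun act through AP-1 sites. Neither the IRF repeat (GAAA, 2 free bases, GAAA, in 2.98% of all windows) nor the ETS-IRF composite (GGAA, 2 free bases, GAAA, in 2.3%) was found in any of the 7 windows, and these motifs can overlap. A match is a string of letters, not a measured binding site.

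**Figure D1:**
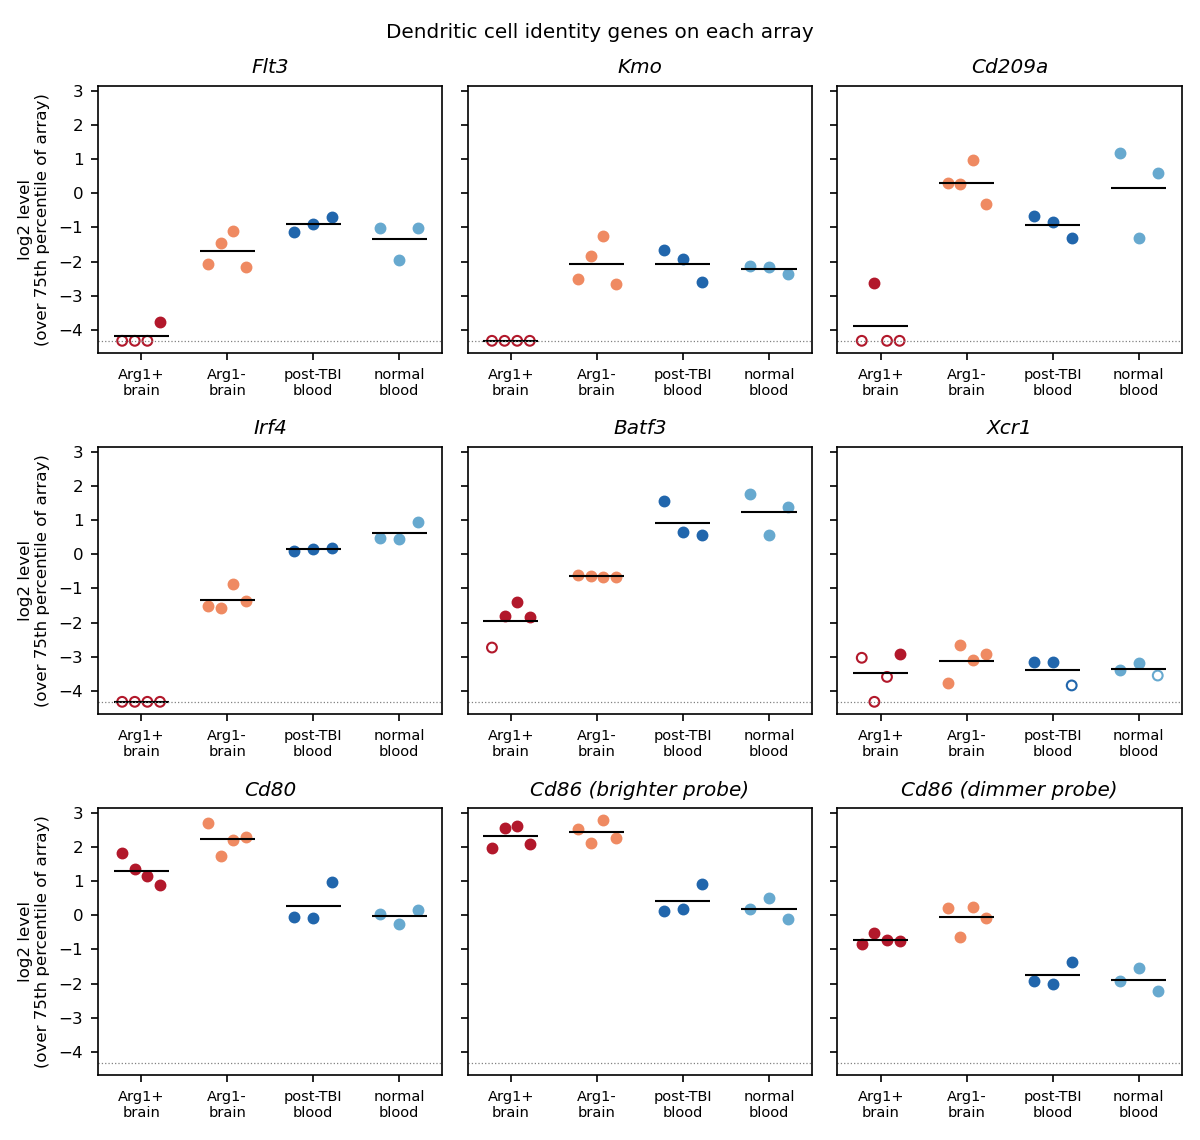
Log2 level of each member on each of the 14 arrays, relative to the 75th percentile of the array (y axis), in the groups Arg1+ brain, Arg1- brain, post-TBI blood and normal blood (x axis). Points are arrays, open points were not well above background, bars are group means and the dotted line is the lowest possible level of -4.32. Flt3, Kmo and Irf4 lie at or near that line on the 4 Arg1+ arrays and Cd209a on 3 of them, and Cd80 and Cd86 are highest on the brain arrays.

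Arg1+ and Arg1- brain macrophages came from the injured brain at the same time, and their comparison addresses how cells sorted as high in the Arg1 reporter differ from the rest, in which Arg1 was lower but well above background on all 4 arrays. Of the 8 members 5 were called lower in Arg1+ cells and 0 higher, where 5.04% of all features were called, 2.9% lower and 2.14% higher. The same 5 lay below every Arg1- array, as did 7.37% of all features. The members' median difference was -1.79, and that of all features was 0.00. It follows from this that all 5 were lower on each of the 4 slides, which held 1 array of either brain group each.

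Irf4, the interferon regulatory factor of cDC2 and of monocyte-derived dendritic cells, was at the lowest possible level of -4.32 on all 4 Arg1+ arrays, against -1.51, -1.56, -0.87 and -1.37 on Arg1- arrays. It lay at 0.11, 0.17 and 0.19 in post-TBI blood and at 0.48, 0.46 and 0.95 in normal blood. The 4 groups did not overlap, and the order ran from Arg1+ brain over Arg1- brain and post-TBI blood to normal blood. Irf4 was at least 7.23-fold lower in Arg1+ than in Arg1- cells (fitted difference -2.99 ± 0.20, adjusted p = 4.29e-06, limma), with differences of -3.45 to -2.76 within the 4 slides. This bound, like every at-least fold given here, holds only on the scale of the processed signal. The Arg1+ values, all at the lowest possible level, had an SD of 0.0, so the spread behind this p came from the other groups. With normexp background correction the difference was -0.97 and in the authors' log2 values -1.60, both still called.

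Flt3, the receptor for the growth factor that drives dendritic cell development, lay at -4.32, -4.32, -4.32 and -3.78 on Arg1+ arrays, against -2.07, -1.44, -1.11 and -2.15 on Arg1- arrays. Its levels were -1.12, -0.90 and -0.69 in post-TBI blood and -1.01, -1.96 and -1.02 in normal blood. The Arg1+ arrays lay apart from all others, with 1 of 4 well above background, while the ranges of Arg1- brain, post-TBI blood and normal blood overlapped. The Arg1+ level was lower than the Arg1- level, by a fitted value that 3 arrays at the lowest possible level partly set (-2.50 ± 0.29, adjusted p = 0.000136, limma), and within slides the difference ran from -3.21 to -2.17. With normexp it was -0.66 and no longer called (adjusted p = 0.112), and in the authors' log2 values it was -1.21 and called.

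Cd209a, a mouse relative of the human lectin DC-SIGN and a marker of cDC2 and monocyte-derived dendritic cells, lay at -4.32, -2.64, -4.32 and -4.32 on Arg1+ arrays, against 0.31, 0.28, 0.99 and -0.31 on Arg1- arrays. It lay at -0.65, -0.84 and -1.31 in post-TBI blood and at 1.18, -1.30 and 0.60 in normal blood. Arg1+ arrays were below every other array, and normal blood spread across the range of both Arg1- brain and post-TBI blood. With 3 of 4 Arg1+ arrays at the lowest possible level, the size of the difference is a fitted value and not a measured fold (-4.22 ± 0.49, adjusted p = 0.00014, limma), with -4.64 to -3.63 within slides, -1.76 with normexp and -2.59 in the authors' log2 values. Of 6 listed relatives of Cd209a 1 was tested, Cd209d, which averaged -4.32 in Arg1+ and -3.31 ± 0.83 in Arg1- cells (n = 4 each) and did not pass the test (adjusted p = 0.176, limma).

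Kmo encodes kynurenine 3-monooxygenase, an enzyme of tryptophan breakdown whose transcript marks mouse conventional dendritic cells. It was at -4.32 on all 4 Arg1+ arrays, against -2.50, -1.83, -1.24 and -2.66 on Arg1- arrays. The level was -1.66, -1.92 and -2.59 in post-TBI blood and -2.12, -2.15 and -2.37 in normal blood, so the Arg1- and both blood groups overlapped and the Arg1+ group lay below all of them. Kmo was at least 4.37-fold lower in Arg1+ than in Arg1- cells (-2.26 ± 0.29, adjusted p = 0.000339, limma), with -3.09 to -1.66 within slides. All 4 Arg1+ values were at the lowest possible level (SD 0.0), so the spread behind this p came from the other groups. With normexp the difference was -0.60 and not called (adjusted p = 0.212), and in the authors' log2 values -1.24 and called.

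Batf3, the AP-1 family factor that cDC1 need to develop, lay at -2.73, -1.82, -1.39 and -1.83 on Arg1+ arrays, against -0.60, -0.63, -0.66 and -0.65 on Arg1- arrays. It lay at 1.57, 0.65 and 0.57 in post-TBI blood and at 1.76, 0.56 and 1.38 in normal blood. The Arg1- values were nearly equal to each other, the brain groups did not overlap, and the blood groups overlapped each other above both. The Arg1+ level was 2.47-fold lower than the Arg1- level (-1.31 ± 0.31, adjusted p = 0.0225, limma), with differences of -2.08 to -0.78 within the 4 slides. This call was lost without any 1 of the Arg1- arrays (adjusted p = 0.0512 to 0.0614) or without Arg1+ replicate 1 (-1.04, adjusted p = 0.0608), with normexp (-0.63, adjusted p = 0.199), with no filter on dim probes (adjusted p = 0.0701) and in the authors' log2 values (-0.86, adjusted p = 0.0713).

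Xcr1, the chemokine receptor that marks cDC1, stayed dim throughout. It lay at -3.03, -4.32, -3.59 and -2.93 on Arg1+ arrays, against -3.77, -2.67, -3.10 and -2.92 on Arg1- arrays, -3.14, -3.14 and -3.84 in post-TBI blood and -3.38, -3.18 and -3.55 in normal blood. The ranges of all 4 groups overlapped, and the probe was well above background on 9 of 14 arrays and a second Xcr1 probe on 0. Arg1+ minus Arg1- was -0.35 ± 0.32 with a 95% interval of -1.03 to 0.32 (adjusted p = 0.671, limma), so a difference of that size was not detectable here.

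Cd80, a ligand of the T cell receptors CD28 and CTLA-4, lay at 1.82, 1.36, 1.14 and 0.89 on Arg1+ arrays, against 2.70, 1.73, 2.20 and 2.30 on Arg1- arrays. It lay at -0.06, -0.07 and 0.98 in post-TBI blood and at 0.03, -0.25 and 0.17 in normal blood. The highest Arg1+ array was above the lowest Arg1- array, and the highest post-TBI blood array, replicate 4, was above the lowest Arg1+ array. Arg1+ minus Arg1- was -0.93 ± 0.27 and did not pass the test (adjusted p = 0.0595, limma), though Arg1+ was the lower array on 4 of 4 slides, by -1.55 to -0.48. It was called with the slide as a block (adjusted p = 0.0229), with quantile normalization (adjusted p = 0.0396), with normexp (adjusted p = 0.0482) and without Arg1- replicate 2 (adjusted p = 0.039), Arg1+ replicate 1 (adjusted p = 0.0373) or post-TBI blood replicate 4 (adjusted p = 0.0179).

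Cd86, which binds the same T cell receptors as Cd80, had 2 probes that passed the filter, and both are given. On the brighter probe the levels were 1.98, 2.57, 2.63 and 2.08 on Arg1+ arrays, against 2.54, 2.11, 2.79 and 2.28 on Arg1- arrays, 0.12, 0.18 and 0.92 in post-TBI blood and 0.19, 0.50 and -0.12 in normal blood. The brain groups overlapped, with a difference of -0.12 ± 0.23 (95% interval -0.60 to 0.37, adjusted p = 0.897, limma). On the dimmer probe the levels were -0.84, -0.53, -0.73 and -0.75 on Arg1+ arrays, against 0.22, -0.63, 0.24 and -0.08 on Arg1- arrays, -1.91, -2.01 and -1.36 in post-TBI blood and -1.92, -1.55 and -2.21 in normal blood. There 3 of 4 Arg1- arrays were above every Arg1+ array, and the difference was -0.65 ± 0.23 (adjusted p = 0.137, limma on every kept probe singly). Within slides the dimmer probe was lower in Arg1+ on 4 of 4, by -0.95 to -0.12, and the brighter one on 3 of 4, by -0.30 to 0.09. An exact two-sided permutation test over the 8 brain arrays, which leaves the slide out, gave p = 0.0571 for the dimmer probe, where 0.0286 is the smallest p it allows, and p = 0.6 for the brighter one.

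**Figure D2:**
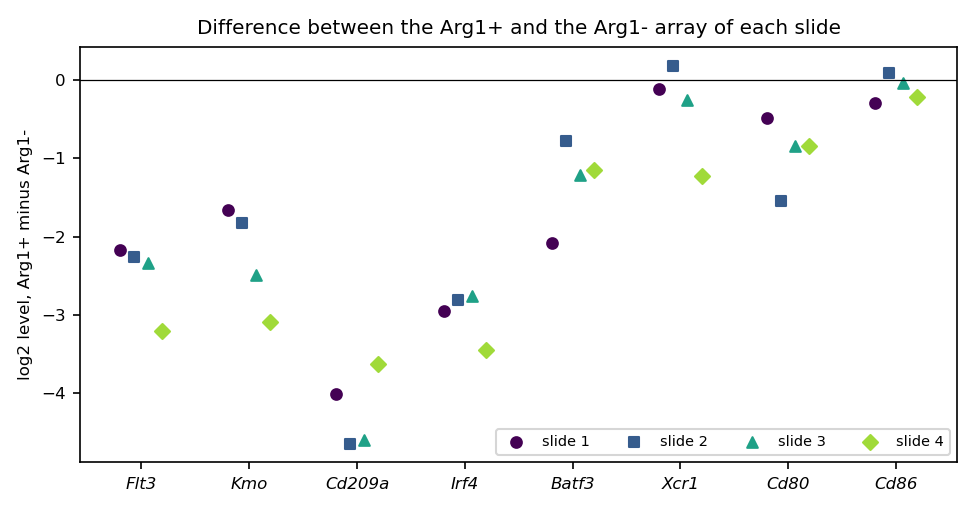
Difference in log2 level between the Arg1+ and the Arg1- array of the same slide (y axis) for each member (x axis), with 1 symbol per slide (4 slides). Flt3, Kmo, Cd209a, Irf4, Batf3 and Cd80 lie below 0 on all 4 slides, and Xcr1 and the brighter Cd86 probe on 3 of 4.

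Other cell markers moved between Arg1+ and Arg1- cells beside these members. Of the 10 tested neutrophil markers 7 were lower in Arg1+ cells and 1 was higher, with sums of 10.0 to 21.1 on Arg1+ arrays and 34.0 to 142 on Arg1- arrays. Markers of Ly6C-high monocytes (3 of 5 tested lower, sums of 29.8 to 44.5 against 53.7 to 80.6 on Arg1- arrays) and of Ly6C-low monocytes (4 of 8 lower, 11.2 to 15.3 against 18.7 to 26.8) were also lower. The neutrophil gene S100a8, the Ly6C-high gene Plac8 and the Ly6C-low gene Cx3cr1 each had 3 usable Arg1- arrays. The Arg1- sums of these lists therefore do not all cover the same genes. Natural killer cell markers summed to 0.37 to 0.479 on Arg1+ arrays and 0.918 to 2.19 on Arg1- arrays, and Xcl1 was well above background on 0 arrays. Only 1 of 7 was lower, Klrd1, which averaged -3.67 in Arg1+ and -0.13 in Arg1- cells. Klrb1c, Gzma and Gzmb averaged -4.32 to -4.28 in both groups, at or near the lowest possible level. Microglia markers summed to 56.7 to 89.6 on Arg1+ arrays and 42.9 to 56.5 on Arg1- arrays, with 0 of 8 called by limma and 5 at an unadjusted p under 0.05. In Arg1+ cells 1 of 11 macrophage, 1 of 8 B cell, 1 of 4 neuron and 1 of 3 astrocyte markers were higher, and 0 of 6 T cell markers were called, 3 having an unadjusted p under 0.05. The part of these cells in the members' differences was not tested.

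Other dendritic cell genes, listed by name, were read in the same comparison. These lists too were chosen with earlier results of these data known, so their counts are descriptive and not independent of the members. Of 25 genes shared by conventional dendritic cells 20 were tested, 12 were lower in Arg1+ cells and 0 higher, with a median of -1.42. Ccr7, the receptor that guides dendritic cells to lymph nodes, averaged -3.28 ± 0.74 in Arg1+ and 1.20 ± 0.30 in Arg1- cells (SD, n = 4 each), a difference of -4.48 ± 0.42 (adjusted p = 3.05e-05, limma). The inhibitory receptor Btla was at least 7.36-fold lower (fitted -3.02). The peptidase Dpp4 (fitted -2.97) and the class II chain H2-Eb2 (fitted -2.81) were lower too, with 2 of 4 and 1 of 4 Arg1+ arrays well above background, so that no fold is given. With normexp the differences were smaller and still called, at -2.71 for Ccr7, -1.14 for Btla and -0.98 for H2-Eb2, with Dpp4 between these (adjusted p = 0.0201). The transcriptional corepressor Cbfa2t3 fell by 2.26 on the log2 scale and the integrin Itgax, which encodes CD11c, fell by 1.40.

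The genes of mature, migratory dendritic cells went the same way for 7 of 14 tested of 18 listed, with 0 higher and a median of -1.14. Ccr7, which is on the shared conventional list too, was among the 7. Ccl17 and Ccl22, chemokines that share the receptor Ccr4, were 9.01-fold and at least 7.67-fold lower in Arg1+ cells, and Ccl22 was not well above background on any Arg1+ or blood array. The calcium channel subunit Cacnb3 was 6.05-fold lower, the actin bundler Fscn1 2.77-fold and the maturation marker Cd83 3.04-fold. With normexp Ccl17 was at -2.47, Ccl22 at -1.15 and Fscn1 at -0.88, all called. Of 11 tested cDC2 genes 3 were lower, the lectins Mgl2 (-2.01, and -1.28 with normexp) and Clec10a (-1.56) and the cytokine Ltb (-1.31, adjusted p = 0.0129, limma, lost without Arg1- replicate 3 at 0.0511, with normexp and in the authors' log2 values).

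Among genes of the cross-presenting type, of 7 tested cDC1 genes 0 passed the limma test in either direction in Arg1+ against Arg1- cells (median 0.25, 3 with an unadjusted p under 0.05), and 5 of 12 listed, Clec9a and Tlr3 among them, had no tested probe. Of 13 tested plasmacytoid dendritic cell genes 1, the DNA sensor Tlr9, was lower (-0.69, adjusted p = 0.0144, limma), and it was not called without Arg1- replicate 4 (adjusted p = 0.0516) or Arg1+ replicate 2 (adjusted p = 0.0523). Of 6 tested kynurenine pathway enzymes other than Kmo 0 were called by limma and 0 had an unadjusted p under 0.05, with differences of -0.37 to 0.32.

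Of 18 tested dendritic cell transcription factors 1 was lower, Cbfa2t3, which is on the shared list too, while Spi1, which encodes PU.1, was at 5.21 in Arg1+ and 5.25 in Arg1- cells. Irf8, the factor paired with Batf3 in cDC1, was at 4.30 in Arg1+ and 3.67 in Arg1- cells (0.64, adjusted p = 0.088, limma), a difference that was called without post-TBI blood replicate 4 (adjusted p = 0.0436). Of 16 tested genes of Flt3 ligand and growth factor receptor signalling 0 were called by limma and 1 had an unadjusted p under 0.05 (median -0.02), with Flt3l itself at 0.67 in Arg1+ and 0.63 in Arg1- cells. Of 11 tested ligands of T cell costimulation other than Cd80 and Cd86 1 was lower, Icosl (-1.05, adjusted p = 0.00415, limma, with 3 usable Arg1- arrays).

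**Figure D3:**
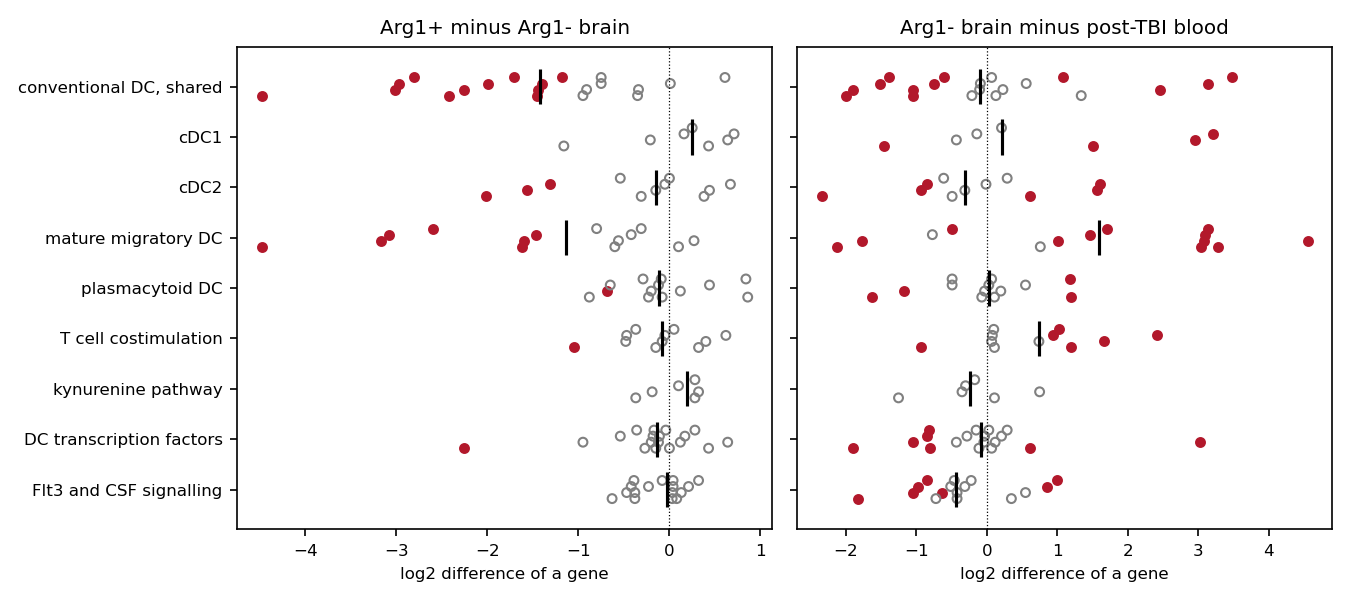
Log2 difference of each tested gene (x axis) by gene list (y axis), for Arg1+ minus Arg1- brain macrophages on the left and Arg1- brain macrophages minus post-TBI blood monocytes on the right. Filled points were called at an adjusted p under 0.05, open points were not, and vertical bars are list medians. The shared conventional and the mature migratory lists lie to the left of 0 in the left panel (medians -1.42 and -1.14), and the mature migratory list lies to the right in the right panel (1.58).

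Both brain groups were set against post-TBI blood monocytes, the circulating cells of mice with the same injury. The comparisons share the 3 post-TBI blood arrays, so their values are given side by side and not as independent results. In Arg1+ cells 7 of 8 members were called against blood, 5 lower and 2 higher, where 39.9% of all features were called (20.0% lower and 19.9% higher). In Arg1- cells 4 of 8 were called, 2 lower and 2 higher, where 33.4% of all features were called (16.3% lower and 17.0% higher). The members' median difference was -2.57 for Arg1+ and 0.13 for Arg1- cells, against -0.03 and -0.02 for all features.

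Irf4 was at least 20.3-fold lower in Arg1+ cells than in post-TBI blood (fitted -4.48, adjusted p = 5.8e-10, limma), a bound that holds on the scale of the processed signal, since normexp gave -2.08. It was 2.80-fold lower in Arg1- cells than in post-TBI blood (-1.49, adjusted p = 8.24e-05). Batf3 was 7.31-fold lower in Arg1+ cells (-2.87, adjusted p = 7.11e-06, limma, and -1.93 with normexp) and 2.96-fold lower in Arg1- cells (-1.56, adjusted p = 0.00211). Neither brain group overlapped post-TBI blood for these factors, as was so for 39.7% of all features in Arg1+ and 36.9% in Arg1- cells. The differences were therefore below 0 on all 3 slides that held blood arrays. The test between Arg1+ and Arg1- cells is that of the preceding comparison.

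Flt3 was lower in Arg1+ cells than in post-TBI blood by a fitted value of -3.28 (adjusted p = 8.46e-07, limma), which was -1.10 and called with normexp, while Arg1- cells gave -0.79 ± 0.31 and did not pass the test (adjusted p = 0.0644). The Arg1- value was called without Arg1- replicate 3 (-0.98, adjusted p = 0.0275) or normal blood replicate 3 (adjusted p = 0.0463). Kmo was at least 4.37-fold lower in Arg1+ cells (-2.27, adjusted p = 4.15e-05, limma), and lost its call with normexp (-0.51, adjusted p = 0.114). In Arg1- cells Kmo averaged -2.06 ± 0.65 (n = 4) and in post-TBI blood -2.06 ± 0.48 (n = 3), a 95% interval of the difference of -0.68 to 0.67. Cd209a was lower in Arg1+ cells than in post-TBI blood by a fitted value of -2.97 (adjusted p = 0.000396, limma), which was -0.95 with normexp (adjusted p = 0.0302). Its Arg1- arrays were all above the blood arrays, as were 18.9% of all features, by 1.25 ± 0.53, which did not pass the test (adjusted p = 0.0866) unless normal blood replicate 3 was left out (adjusted p = 0.0332). Xcr1 gave -0.09 ± 0.34 in Arg1+ and 0.26 ± 0.34 in Arg1- cells, neither called.

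The costimulatory ligands were higher in the brain. Cd86 was 3.75-fold higher in Arg1+ cells than in post-TBI blood (1.91, adjusted p = 1.9e-05, limma) and 4.06-fold higher in Arg1- cells (2.02, adjusted p = 1.68e-05). Its dimmer probe gave 1.05 (adjusted p = 0.00343) and 1.70 (adjusted p = 9.64e-05). Cd80 was 2.03-fold higher in Arg1+ cells (1.02, adjusted p = 0.0106, limma) and 3.86-fold higher in Arg1- cells (1.95, adjusted p = 0.000103). The Arg1+ call for Cd80 was lost without post-TBI blood replicate 1 (adjusted p = 0.0504) or 3 (adjusted p = 0.0603), and without replicate 4, the blood array with the highest Cd80, the difference was 1.37 (adjusted p = 0.00104).

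**Figure D4:**
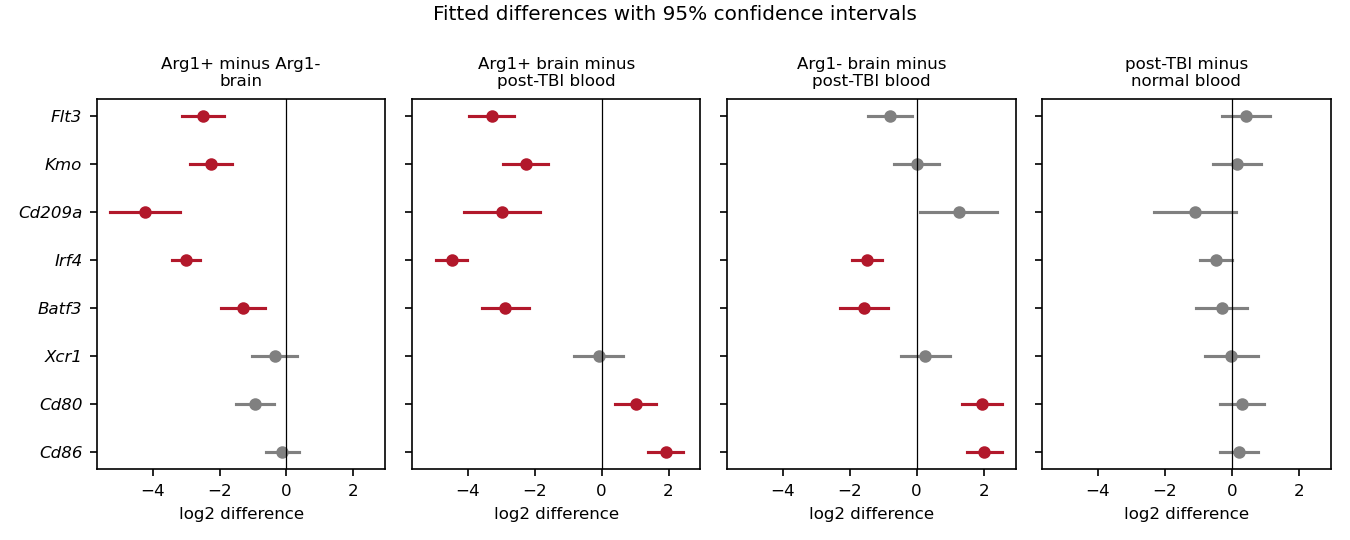
Fitted log2 differences with 95% confidence intervals (x axis) for each member (y axis) in the 4 comparisons, red where the adjusted p was under 0.05 and grey where it was not. Flt3, Kmo, Cd209a, Irf4 and Batf3 lie below 0 in both panels with Arg1+ cells, Cd80 and Cd86 lie above 0 in both panels of brain against blood, and no member is red between post-TBI and normal blood.

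The other dendritic cell genes were read against post-TBI blood as well. Of the 14 tested mature migratory genes, Arg1+ cells had 4 called higher and 5 called lower (median -0.07), and Arg1- cells 9 and 3 (median 1.58). Ccl17 was 2.60-fold higher in Arg1+ cells than in post-TBI blood (1.38) and 23.5-fold higher in Arg1- cells (4.55). Ccr7 was 2.54-fold lower in Arg1+ cells (adjusted p = 0.0296, limma), where its range overlapped that of blood, and 8.79-fold higher in Arg1- cells. Fscn1 was higher by 1.63 on the log2 scale in Arg1+ cells and 8.57-fold higher in Arg1- cells. The cytokine signalling inhibitor Socs2 was 10.4-fold higher in Arg1+ and 9.70-fold higher in Arg1- cells, with 2 of 3 post-TBI blood arrays well above background. With normexp these differences were smaller and still called, at 1.62 in Arg1+ and 1.51 in Arg1- cells for Socs2 and at 0.81 and 1.68 for Fscn1, while in Arg1- cells Ccl17 was at 3.36 and Ccr7 at 2.36.

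On the shared conventional list 20 genes were tested, of which Arg1+ cells had 2 above and 15 below post-TBI blood, and Arg1- cells 4 above and 8 below. The arginine-making enzyme Ass1 (2.74 in Arg1+ and 3.48 in Arg1- cells) and the surface receptor Slamf7 (3.07 in Arg1+ and 2.46 in Arg1- cells) were higher in both. Btla (at least 29.5-fold lower in Arg1+ and 4.00-fold lower in Arg1- cells) and Cbfa2t3 (-4.16 in Arg1+ and -1.90 in Arg1- cells) were lower in both, and in Arg1+ cells normexp gave -2.67 for Btla and -3.56 for Cbfa2t3. Of 7 tested cDC1 genes 3 were higher and 1 lower in either brain group, with the adhesion molecule Cadm1 (3.91 in Arg1+ and 3.21 in Arg1- cells) and Rab7b (3.11 and 2.95) higher and Naaa (-1.20 and -1.45) lower. Of 11 tested costimulation genes 5 were higher and 1 lower in either, among them Tnfsf9, the 4-1BB ligand (2.46 in Arg1+ and 2.41 in Arg1- cells), and Cd274, which encodes PD-L1 (1.35 and 1.03), while the checkpoint ligand Vsir was lower (-1.30 and -0.93). With normexp Cadm1 was at 2.24 in Arg1+ and 1.61 in Arg1- cells and Tnfsf9 at 1.21 in both.

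Markers of other cells moved beside these genes. B cell markers were lower in both brain groups than in post-TBI blood (7 of 8 in Arg1+ and 8 of 8 in Arg1- cells), with sums of 2.44 to 2.96 on Arg1+ arrays, 1.92 to 2.32 on Arg1- arrays and 6.63 to 6.86 in post-TBI blood. Ly6C-low monocyte markers were lower as well, 8 of 8 in both, and summed to 152 to 167 in post-TBI blood. Ly6C-high monocyte markers were lower for 5 of 5 in Arg1+ and 4 of 5 in Arg1- cells, with sums of 196 to 210 in post-TBI blood. Of 6 T cell markers 3 were lower in either brain group, and of 7 natural killer cell markers 2 were lower in Arg1+ and 1 in Arg1- cells. Of the neutrophil markers 2 of 10 were higher and 3 lower in Arg1+ cells, against 7 higher and 1 lower in Arg1- cells, beside sums of 16.4 to 96.8 in post-TBI blood. Macrophage markers were higher for 7 of 11 in both brain groups, with 1 lower in Arg1- cells. Microglia markers were higher for 6 of 8 in both, with sums of 11.7 to 13.6 in post-TBI blood. Of 4 neuron markers 3 were higher in Arg1+ and 2 in Arg1- cells, and of 3 astrocyte markers 3 in Arg1+ and 0 in Arg1- cells. Their part in the members' differences was not tested.

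Post-TBI and normal blood monocytes were compared to ask whether the injury reached the circulating cells by day 1. Of the 8 members 0 were called by limma, 0 had an unadjusted p under 0.05, and 0.15% of all features were called. Irf4 was the member with the smallest unadjusted p, 0.0573 (-0.47 ± 0.23, adjusted p = 0.791, limma). Its post-TBI arrays lay below all normal arrays, as did those of 4.77% of all features, and hence below the normal array on each of 3 slides. Cd209a was at -1.09 ± 0.57 (adjusted p = 0.819) and, without normal blood replicate 3, at -1.82 (adjusted p = 0.237). The 95% intervals of all 8 members included 0, that of Irf4 being -0.96 to 0.02. The widest was -2.31 to 0.12 for Cd209a, and among the other 6 it was -0.79 to 0.78 for Xcr1. Of the genes on the lists Slamf7 alone was called (-1.24 ± 0.22, adjusted p = 0.0367, limma), and this call was lost in 7 of the 8 other settings that kept all arrays (adjusted p = 0.0507 to 0.128) and without 11 of the 14 arrays in turn, post-TBI blood replicate 4 among them (adjusted p = 0.0935).

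The features most like each member over the 14 arrays were found as those with the smallest root mean square difference after each was centred on its own mean. Kmo was nearest to H2-Eb2 (0.35), the fatty acid receptor Ffar2 (0.36) and Clec10a (0.38), and Flt3 to Gstp3 (0.50), the neutrophil surface protein Cd177 (0.50) and H2-Eb2 (0.52). Cd209a had the class II genes H2-Ob (0.69), Ciita (0.73) and H2-Eb2 (0.83) as its nearest, all at a larger distance. Irf4 was near to Btla (0.39) and Ifitm6 (0.40). Batf3 was nearest to the fucosyltransferase Fut7 (0.29), Acss1 (0.33) and Ramp1 (0.37), all with their highest mean in normal blood. Cd80 was nearest to the transcription factor Bhlhe40 (0.35), the arginine transporter Slc7a1 (0.36) and Slc4a11 (0.37), and Cd86 to Tmem120b (0.26), Spdl1 (0.28) and Mgat5 (0.28). The nearest features of the dim Xcr1 probe, Scgb3a1 (0.17), Crybb2 (0.18) and S100a5 (0.19), were likewise dim in all 4 groups.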

How the data were processed

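Arrays were read by the scanner software Feature Extraction 10.7.3.1, whose deposited files hold, per the file headers, processed intensities with the background taken off, the intensity of each spot and its surroundings, and other fields such as per-spot flags, for an array annotated on mm9. The deposited value table holds the authors' log2 values, and limma is named without a step in the submitters' processing notes. RNA had been amplified with a whole transcriptome kit, per the labels' protocols.

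The processed intensity was divided by the array's 75th percentile (119.42 to 418.5 across arrays), ratios under 0.05 were raised to 0.05, and log2 was taken. Spots marked non-uniform or as population outliers were left out (200 to 728 per array), and no spot was saturated. Probes without 2 usable arrays in each group (464 of 41174) or well above background on under 3 arrays (13090) were left out. Names came from a RefSeq table on GRCm38.p6, and the brightest of the 27620 kept probes stood for each gene. All 14 arrays entered 1 limma 3.58.1 fit (R 4.3.3, intensity trend, 10 residual degrees of freedom), which was tested on simulated data. Between 50.13% and 67.26% of probes were well above background, and 3 or 4 arrays per group limit the precision. Where no array of a group was well above background, a fold is given as at least N-fold, from the bright group's mean against the dim group's values raised to the lowest level well above background on that array. Such a fold holds on the processed scale only, since that level is not the detection limit of each probe. On Arg1+ replicate 1 it was -3.8, while Batf3 at -2.73 was not well above background there.

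The members, 10 lists of dendritic cell genes and 10 lists of cell markers were chosen with earlier results of these data known. Up to 4 called genes with the largest differences per list and comparison could be named, and the 3 nearest features per member, of which 1 is not reported here. Itgax, Cd83, Fscn1, Irf8, Spi1, Flt3l and Cd209d were named in addition, after their values were seen, as was the fit of every probe singly. Alternatives were quantile normalization, normexp, no filter on dim probes, a floor of 0.1, the mean over probes, the authors' log2 values, slide or replicate number as a block, and leaving out each array.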

Additional observations from a re-analysis of the deposited data

Results flagged for a closer look

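Dixon's test at the 95% level was run on the arrays of each group of 4, for the members and named genes, and marked 4 of the 88 groups examined. In each the other 3 Arg1+ arrays lay at the lowest possible level of -4.32, so that any array above it is marked. The count of marks therefore cannot be set against a chance rate. Flt3 was at -3.78 on Arg1+ replicate 4, and Cd209a was at -2.64 on Arg1+ replicate 2. Btla was at -3.55 and Dpp4 at -4.02, both also on Arg1+ replicate 2. All 4 genes stayed below every Arg1- array there.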

How the results depend on the processing

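The count of members called lower in Arg1+ than in Arg1- cells was 5, and it was 3 with normexp background correction and 4 to 6 in the other settings, left-out arrays included. With normexp the 3 were Irf4, Cd209a and Cd80, so Flt3, Kmo and Batf3 lost their calls and Cd80 gained one. Normexp moved the median of all features by 0.14 in this comparison, and relative to it Flt3 was at -0.80, Kmo at -0.73 and Batf3 at -0.77. Against post-TBI blood the count was 6 to 7 for Arg1+ cells and 4 to 6 for Arg1- cells (6 without normal blood replicate 3) when 1 array was left out, and between the blood groups it was 0 throughout. No member turned its direction past the threshold in any setting.

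Same-numbered arrays of different groups did not deviate together (r of deviations -0.464 to 0.401 over 18 pairs), so the numbers were not taken as pairs. With the replicate block 4 members were called between Arg1+ and Arg1- cells, Batf3 being the one lost (adjusted p = 0.0563, limma), and it changed no other member's call. Arrays of 1 slide did deviate together (median r 0.229 over 19 pairs), and the slide block called 6.

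Among all features, 1108 were called between Arg1+ and Arg1- cells, against 525 with normexp, 602 without Arg1- replicate 3, 693 without Arg1+ replicate 3 and 1790 without post-TBI blood replicate 4. Between the blood groups 33 were called, against 2 without post-TBI blood replicate 3, 60 without its replicate 1 and counts between these without each other array, 15 with normexp, 20 in the authors' log2 values and 10 with the replicate block. Of 288 member values under the other settings 278 kept their side of the threshold, as did 435 of 448 with 1 array left out. Levels at -4.32 have no order, which limits Flt3, Kmo, Cd209a, Irf4, Btla, Dpp4, H2-Eb2 and Ccl22 in Arg1+ cells to lower bounds or fitted values.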

Other observations

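Against post-TBI blood, genes of plasmacytoid dendritic cells and of growth factor signalling were also read. Of 13 tested plasmacytoid genes, Arg1+ cells had 3 called higher and 4 called lower, and Arg1- cells 2 and 2. The interferon regulator Irf7 was higher by 0.97 in Arg1+ and by 1.19 in Arg1- cells on the log2 scale, and the RNA sensor Tlr7 was lower (-1.18 in Arg1+ and -1.63 in Arg1- cells). Of 16 tested genes of Flt3 ligand and growth factor receptor signalling, Arg1+ cells had 1 called higher and 6 called lower, and Arg1- cells 2 and 5. Csf3r, the receptor for the granulocyte growth factor G-CSF, was lower (-2.23 in Arg1+ and -1.83 in Arg1- cells).

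Of 18 tested dendritic cell transcription factors, Arg1+ cells had 3 called higher and 5 called lower than post-TBI blood, and Arg1- cells 2 and 5. Jun, an AP-1 partner of the Batf family, was 8.89-fold higher in Arg1+ and 8.16-fold higher in Arg1- cells. Of 11 tested cDC2 genes, Arg1+ cells had 2 called higher and 4 called lower, and Arg1- cells 3 and 3. The Notch partner Rbpj was 4.82-fold higher in Arg1+ and 3.04-fold higher in Arg1- cells, with 1.51 in Arg1+ and 0.96 in Arg1- cells on the log2 scale under normexp, and Ltb was lower (-3.65 in Arg1+, where normexp gave -2.37, and -2.34 in Arg1- cells). Mgl2 gave -0.45 in Arg1+ cells, which did not pass the test (adjusted p = 0.288, limma), and was higher in Arg1- cells by 1.56. Of 6 tested kynurenine pathway enzymes and 1 relative of Cd209a 0 were called by limma in either brain group, with 1 enzyme at an unadjusted p under 0.05 in each.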
